A study of Mus musculus with 12 samples.

Results

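Microglia are the resident macrophages of the brain. Here 9 genes known as microglia markers, not all of them specific to microglia, were followed in mouse macrophages grown from bone marrow. The 9 genes are Fcrls, Siglech, P2ry12, P2ry13, Gpr34, Cx3cr1, Tmem119, Olfml3 and Aif1. They were found by symbol among the 24728 genes of the deposited table, 1 row each. They were listed for what is known of them, not by a threshold on their values, but with earlier results of these data known. The shares over all tested genes that are set beside their calls are therefore a description. The libraries are of dTomato+ bone-marrow derived macrophages that were purified by flow sorting after ex vivo assays with dissociated brain tumor, per the labels, in a study of myelin recycling by macrophages in glioblastoma. The labels name 4 groups of 3 libraries: Full Tumor, Tumor without Myelin, Myelin Alone and Control. All groups share the macrophage source and the sort, and the mn numbers 957, 958 and 016 occur once in every group. What "mn" means is not given, nor how long exposure lasted, what was given to Control cells, which tumor model supplied the material, or the age and genotype of the animals. No label states that libraries of 1 group came from separate animals or cultures, so the p-values reflect the spread among these libraries alone, and that spread may be technical.

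In the brain, microglia arise early in development and keep their identity under signals of their surroundings, among them transforming growth factor beta and ligands of the receptor CSF1R. Macrophages that enter the brain from the blood, or that are grown from marrow, carry the general macrophage program and little of the microglial one. P2RY12 and P2RY13 are receptors for the nucleotide ADP, GPR34 responds to lysophosphatidylserine, and CX3CR1 binds the chemokine CX3CL1 (fractalkine). FCRLS is a scavenger receptor of the Fc receptor-like family, SIGLEC-H a sialic acid-binding lectin also made by plasmacytoid dendritic cells, and TMEM119 a membrane protein of microglia. OLFML3 is a secreted protein and AIF1 (also called IBA1) an actin-binding protein of macrophages in many tissues. Of these genes Aif1 and Cx3cr1 are the least specific to microglia, since many other macrophages and monocytes make them.

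Promoter sequences are shown for the 5 genes whose rise was called below or that neighbour one of these on the chromosome, because PU.1, the factor that all macrophages depend on, recognises a purine-rich core with the letters AGGAAG. Of the 9 genes 7 matched an entry in the promoter table made from RefSeq (GRCm38.p6); Tmem119 and Gpr34 have no entry there. Each sequence gives the 250 bases before the RefSeq gene start, 5′ to 3′ on the strand of the gene, with every AGGAAG, or CTTCCT where the match is on the other strand, in capitals.
Fcrls promoter, chr3:87263525-87263774, minus strand: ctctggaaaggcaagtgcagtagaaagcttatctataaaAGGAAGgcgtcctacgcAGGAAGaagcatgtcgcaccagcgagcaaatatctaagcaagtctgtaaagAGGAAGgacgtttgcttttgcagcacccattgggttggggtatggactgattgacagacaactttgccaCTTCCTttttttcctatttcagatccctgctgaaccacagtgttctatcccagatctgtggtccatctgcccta
Aif1 promoter, chr17:35176053-35176302, minus strand: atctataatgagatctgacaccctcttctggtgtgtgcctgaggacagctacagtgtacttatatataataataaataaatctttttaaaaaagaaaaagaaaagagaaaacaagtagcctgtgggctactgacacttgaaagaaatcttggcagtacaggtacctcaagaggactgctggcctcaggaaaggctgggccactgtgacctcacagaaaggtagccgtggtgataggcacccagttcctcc
P2ry13 promoter, chr3:59210883-59211132, minus strand: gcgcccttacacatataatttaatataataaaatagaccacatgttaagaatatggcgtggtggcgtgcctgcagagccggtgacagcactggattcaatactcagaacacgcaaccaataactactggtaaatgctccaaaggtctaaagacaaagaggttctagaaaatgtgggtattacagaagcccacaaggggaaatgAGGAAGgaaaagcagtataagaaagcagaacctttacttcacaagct
P2ry12 promoter, chr3:59262986-59263235, minus strand: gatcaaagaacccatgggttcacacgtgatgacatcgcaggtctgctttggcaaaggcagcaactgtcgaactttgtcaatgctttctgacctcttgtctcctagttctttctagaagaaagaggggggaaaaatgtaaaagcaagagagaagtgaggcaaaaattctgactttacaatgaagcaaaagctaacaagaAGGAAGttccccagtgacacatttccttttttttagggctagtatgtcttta
Olfml3 promoter, chr3:103738002-103738251, minus strand: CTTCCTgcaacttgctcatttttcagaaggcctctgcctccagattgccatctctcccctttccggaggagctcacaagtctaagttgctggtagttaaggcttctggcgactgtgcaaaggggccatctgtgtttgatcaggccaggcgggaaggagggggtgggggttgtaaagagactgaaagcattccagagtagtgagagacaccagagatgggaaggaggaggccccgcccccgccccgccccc
AGGAAG was found on either strand in 4 of the 7 promoters, 4 times in that of Fcrls and once each in those of P2ry13, P2ry12 and Olfml3, and in 29.5% of the 32851 promoters of the table. The RefSeq start of Fcrls lies inside the span deposited for that gene (87250758 to 87263738). All 4 Fcrls matches are therefore within that span, not before the start that it gives. The Cx3cr1 window also lies inside the deposited span of its gene. The RUNX core TGTGGT was also in 4 of the 7 (Fcrls, P2ry13, Siglech and Cx3cr1), against 14% of all promoters, and the C/EBP pattern TTGCNNAA in 2 (P2ry12 and Siglech), against 9.56%. The interferon response pattern was in that of Aif1 alone, within a stretch of only A and G, against 2.98% of all. None of the 7 held the AP-1 pattern TGANTCA (6.75% of all promoters) or the MAF pattern TGCTGAC (3.81%). The SMAD palindrome GTCTAGAC (0.167% of all) and the composite of ETS and IRF sites (2.3% of all) were also in none. Both strands were searched, and no match of one pattern overlapped a match of another in the promoters printed. These are matches of letters in a short window, and binding was not measured.

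The libraries held 17071673 to 21689624 counts and 16465 to 17861 detected genes, and mitochondrial transcripts took 0.287% to 0.941% of the counts. The label of macrophages was checked against 10 general macrophage genes, which summed to 18520 to 21720 CPM (counts scaled to the library total, with TMM factors) in the 6 libraries with tumor material and to 16850 to 18950 CPM in the 6 without. Genes that define microglia among macrophages were uneven. Over all 12 libraries Sall3 had 3 counts, Slc2a5 5, Siglech 25 and P2ry12 254, whereas Sparc had 1155 and Tmem119 1278, and Sall1 was not analysed here. Fewer cells of a type and less RNA per cell cannot be told apart in such bulk samples.

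Most of the 9 genes were more abundant in macrophages exposed to tumor material, with or without myelin. Fcrls averaged 83.8 ± 26.8 CPM in Full Tumor, 109 ± 34.8 CPM in Tumor without Myelin, 30.7 ± 4.93 CPM in Myelin Alone and 14.8 ± 6.39 CPM in Control (SD, n = 3 each). Aif1 averaged 97.6 ± 61.3 CPM in Full Tumor, 118 ± 64.6 CPM in Tumor without Myelin, 44.9 ± 39.6 CPM in Myelin Alone and 38.7 ± 28.7 CPM in Control (SD, n = 3 each). Of the 9 genes, 8 passed the filter on low counts, and they also pass it on the 6 libraries without tumor material alone, so none was tested through its level in tumor libraries only. Siglech did not pass.

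The mn numbers pair the libraries across groups, so 2 fits are given: edgeR's quasi-likelihood test with group as the only term, and the same with the number as a block. With group only, Full Tumor against Control called 0 of the 8 genes and 0% of all 13414 tested genes at an adjusted p under 0.05, while 1 of the 8 and 560 genes had an unadjusted p under 0.05. Tumor without Myelin against Control likewise called 0 of 8 and 0% of all, with 4 of the 8 and 548 genes at an unadjusted p under 0.05. DESeq2 with group only called 1 of the 8 (Fcrls) in each of these comparisons. With the block, 2 of 8 were called in Full Tumor against Control (Fcrls and Aif1), against 0.813% of all tested genes, and 5 of 8 in Tumor without Myelin against Control (Fcrls, Aif1, Tmem119, P2ry13 and Olfml3), against 0.745% of all. All of these were higher with tumor material. The median log2 fold change of the 8 with the block was 1.63 for Full Tumor and 1.97 for Tumor without Myelin, against medians of 0.0053 and 0.0041 over all tested genes. Of the 9 genes 6 were higher than Control in each of the 3 numbers in Full Tumor and 6 in Tumor without Myelin, against 16.2% and 16.3% of all tested genes. Groups did not overlap for 1 gene in Full Tumor (Fcrls), against 4.59% of all, and for 3 in Tumor without Myelin (Fcrls, P2ry12 and P2ry13), against 4.25%. Both comparisons use the same Control libraries.

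Pooling both myelin states, the 6 libraries with tumor material (Full Tumor and Tumor without Myelin) were set against the 6 without (Myelin Alone and Control). With group only, 1 of 8 was called, Fcrls, against 0.0745% of all tested genes. The block called 5 of 8, against 2.25% of all, and these were the same 5 genes as in Tumor without Myelin. The median log2 fold change of the 8 was 1.83 with the block, against −0.0017 over all tested genes. In this contrast all 8 estimates were above 0.

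**Figure D1:**
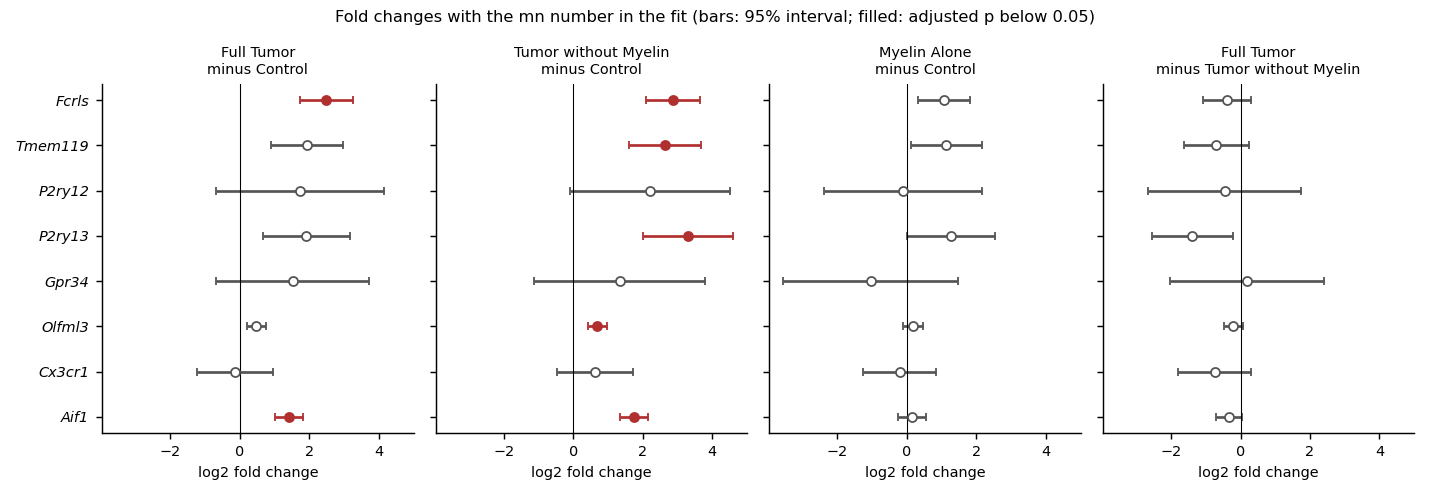
Log2 fold changes (horizontal axis) of the 8 tested genes with the mn number in the fit, in 4 comparisons, with 95% intervals; filled points have an adjusted p under 0.05. Fcrls and Aif1 are filled in both comparisons of tumor material with Control, 3 further genes in Tumor without Myelin only, and none in Myelin Alone against Control or between the tumor groups.

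Fcrls (ENSMUSG00000015852, mm10 chromosome 3, 87250758 to 87263738, minus strand) was called in both comparisons with Control and set the tumor libraries fully apart. In numbers 957, 958 and 016 its level was 53.0, 97.3 and 101 CPM in Full Tumor, 72.4, 112 and 142 CPM in Tumor without Myelin and 33.2, 33.8 and 25 CPM in Myelin Alone, against 16.9, 19.9 and 7.65 CPM in Control. Every library with tumor material was above every library without, and every Myelin Alone library was above every Control library. Such separation in the higher direction was met by 0.574% of the tested genes for 6 against 6 libraries and by 3.19% for Myelin Alone against Control.

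With the block Fcrls rose by 2.49 ± 0.35 (log2 fold change ± SE, edgeR adjusted p = 0.00739) in Full Tumor, which is 5.61-fold, with a 95% interval of 3.30 to 9.52. It rose by 2.87 ± 0.35 (adjusted p = 0.00554) in Tumor without Myelin, 7.33-fold, with an interval of 4.29 to 12.5. For the pooled contrast the rise was 2.15 ± 0.24 (adjusted p = 0.00125). These calls held when any single library was left out with the block, at adjusted p up to 0.0401 for Full Tumor. With group only the pooled rise was 2.16 ± 0.27 (adjusted p = 0.0270), and that call was lost, at adjusted p of 0.0512 to 0.123, without any of 8 libraries: those of number 957 or 958 in Control, Tumor without Myelin or Myelin Alone, that of Full Tumor 958 and that of Myelin Alone 016. With the block, Full Tumor against Control gave 2.90 (adjusted p = 0.0954) without number 957 and 2.61 (adjusted p = 0.170) without 958. The call in Tumor without Myelin was lost in the same way, at 3.28 without 957 (adjusted p = 0.0625) and 3.08 without 958 (adjusted p = 0.120). Without number 016 both calls held but the rise was smaller, at 1.99 in Full Tumor and 2.30 in Tumor without Myelin. With the block the pooled call held without any number, at adjusted p up to 0.0480. With group only the pooled call was lost without number 957 (adjusted p = 0.9999) or 958 (adjusted p = 0.623).

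**Figure D2:**
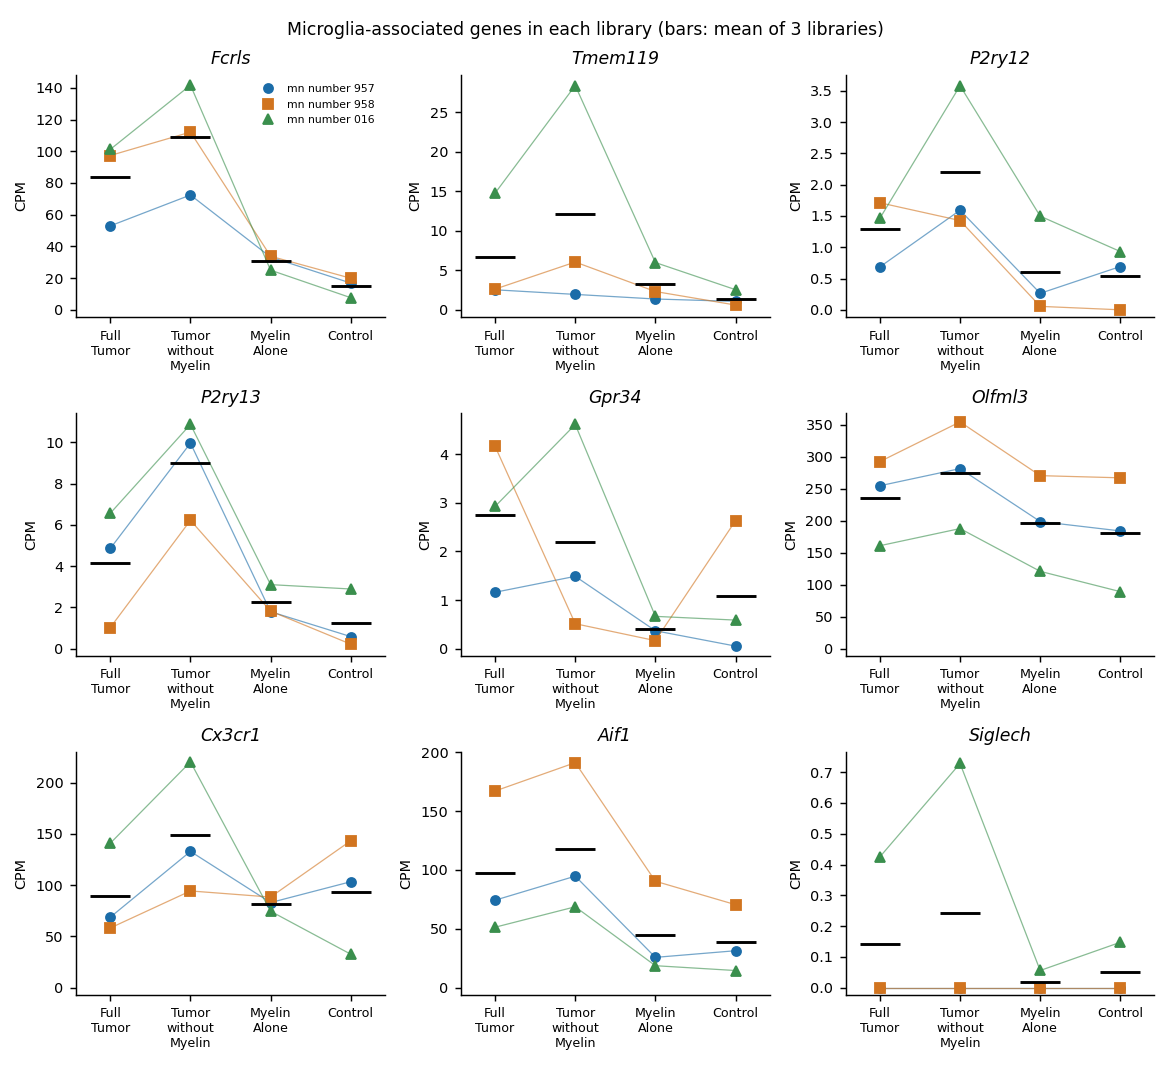
CPM of the 9 genes in each library by group, with a symbol per mn number, thin lines joining libraries of the same number and bars at the mean of 3 libraries; each panel has its own scale. Fcrls lies above all Myelin Alone and Control libraries in the 6 libraries with tumor material, Aif1 and Olfml3 keep the order of the numbers in every group, and Siglech is above 0 in number 016 alone.

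The ADP receptors P2ry13 (ENSMUSG00000036362, chromosome 3, 59207892 to 59210882) and P2ry12 (ENSMUSG00000036353, chromosome 3, 59216272 to 59262871) are neighbours on the minus strand, both inside the span of Med12l on the other strand. P2ry13 was at 4.86, 1.03 and 6.56 CPM in Full Tumor, 9.96, 6.22 and 10.9 CPM in Tumor without Myelin and 1.79, 1.82 and 3.10 CPM in Myelin Alone, against 0.586, 0.220 and 2.89 CPM in Control (numbers 957, 958 and 016). All Tumor without Myelin libraries were above all Myelin Alone and Control libraries, whereas Full Tumor overlapped every other group.

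P2ry13 rose by 3.30 ± 0.59 in Tumor without Myelin with the block (edgeR adjusted p = 0.0283), 9.87-fold with a 95% interval of 4.02 to 24.2. The value in Full Tumor was 1.91 ± 0.57 (adjusted p = 0.216), and over both myelin states P2ry13 rose by 1.97 ± 0.40 (adjusted p = 0.0269). The call in Tumor without Myelin was lost, at adjusted p of 0.0662 to 0.165, without the library of Control 957, Control 958 or of any number of Tumor without Myelin. The pooled call was lost, at 0.0580 to 0.0945, without any library of number 957, or that of Control 958, Tumor without Myelin 958, Full Tumor 016 or Myelin Alone 016. Without the whole of number 957 or 958 both calls were lost, at adjusted p of 0.378 and 0.176 in Tumor without Myelin. For the pooled contrast these were 0.255 and 0.0712. Full Tumor minus Tumor without Myelin was −1.39 for P2ry13, with a 95% interval of −2.56 to −0.22 and an adjusted p of 1.00 (unadjusted p = 0.0242), and the sign was negative in each of the 3 numbers.

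P2ry12 was near the floor of these libraries, where 3 counts are 0.142 to 0.182 CPM. Its level was 0.686, 1.71 and 1.46 CPM in Full Tumor, 1.59, 1.43 and 3.58 CPM in Tumor without Myelin and 0.263, 0.0551 and 1.50 CPM in Myelin Alone, against 0.692, 0 and 0.931 CPM in Control. Tumor without Myelin did not overlap Control, and Full Tumor did. The fitted values with the block were 1.74 in Full Tumor (95% interval −0.68 to 4.15, edgeR adjusted p = 0.675), 2.20 in Tumor without Myelin (−0.11 to 4.50, adjusted p = 0.556) and 2.02 over both myelin states (0.32 to 3.72, adjusted p = 0.287). Med12l had 0 to 15 counts per library and shares 9 exon bases with P2ry12 and none with P2ry13.

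Gpr34 (ENSMUSG00000040229, chromosome X, 13632089 to 13640858, plus strand), a receptor for lysophosphatidylserine, was likewise sparse and irregular. It was at 1.16, 4.16 and 2.93 CPM in Full Tumor, 1.49, 0.514 and 4.61 CPM in Tumor without Myelin and 0.369, 0.165 and 0.665 CPM in Myelin Alone, against 0.0532, 2.63 and 0.588 CPM in Control. The Control library of number 958 was above all of Myelin Alone and within the range of both tumor groups. The pooled value was 1.95 (95% interval 0.34 to 3.56, edgeR adjusted p = 0.275). Gpr34 lies inside Cask on the other strand, which had 190 to 400 counts per library and shares no exon base with it.

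Cx3cr1 (ENSMUSG00000052336, chromosome 9, 119901616 to 120069879, minus strand), is the gene of the fractalkine receptor, and the numbers did not move alike in it. Its level was 68.7, 58.2 and 141 CPM in Full Tumor, 133, 94.3 and 220 CPM in Tumor without Myelin and 83.0, 88.3 and 74.5 CPM in Myelin Alone, against 103, 143 and 32.6 CPM in Control (numbers 957, 958 and 016). Number 016 was the highest of the 3 in both tumor groups and the lowest in Myelin Alone and Control.

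On the log2(CPM + 1) scale the difference of Full Tumor from Control in Cx3cr1 was −0.58 in number 957, −1.29 in 958 and 2.08 in 016. The difference of Tumor without Myelin from Control was 0.36, −0.60 and 2.72 in the same numbers. The fit with the block gave −0.13 (95% interval −1.22 to 0.97, edgeR adjusted p = 0.973) for Full Tumor and 0.62 (−0.47 to 1.71, adjusted p = 0.784) for Tumor without Myelin. The tumor effect in number 016 minus that in 957 and 958, a contrast added after seeing the data, was 1.91 ± 0.47 for Cx3cr1 (unadjusted p = 0.00197, adjusted p = 0.126). It called 0 of the 8 genes, against 0.701% of all tested genes, with 2 of the 8 and 1444 genes at an unadjusted p under 0.05. These 2 were Cx3cr1 and Fcrls, the latter at 1.30 ± 0.54 (edgeR unadjusted p = 0.0357, adjusted p = 0.422). For Cx3cr1 the contrast was called without the filter on low counts (edgeR adjusted p = 0.00272). It was also called without the Myelin Alone library of number 016, at 3.04 (adjusted p = 0.000202). No other setting called it, at adjusted p from 0.0641 (without Control 016) to 0.509 (without Tumor without Myelin 016).

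Number 016 also stood apart in Mpo, which encodes the granule enzyme myeloperoxidase of neutrophils and their precursors. Mpo had 3.87 CPM in Full Tumor, 10.6 CPM in Tumor without Myelin, 27.2 CPM in Myelin Alone and 111 CPM in Control of number 016. In numbers 957 and 958 it was at 0 in 6 of the 8 libraries and reached 1.10 CPM in Control 958. From a list of neutrophil genes 7 were tested, and 1 was called in the pooled tumor contrast with the block, against 2.25% of all tested genes. This was Mpo, lower with tumor material (edgeR adjusted p = 0.00218). The 8 neutrophil genes of that list summed to 14.8 CPM in Full Tumor, 54.3 CPM in Tumor without Myelin, 130 CPM in Myelin Alone and 263 CPM in Control of number 016, and to 10.3 to 114 CPM in the libraries of the other numbers. The part of such cells in the values of Cx3cr1 and of the other genes in number 016 was not tested.

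**Figure D3:**
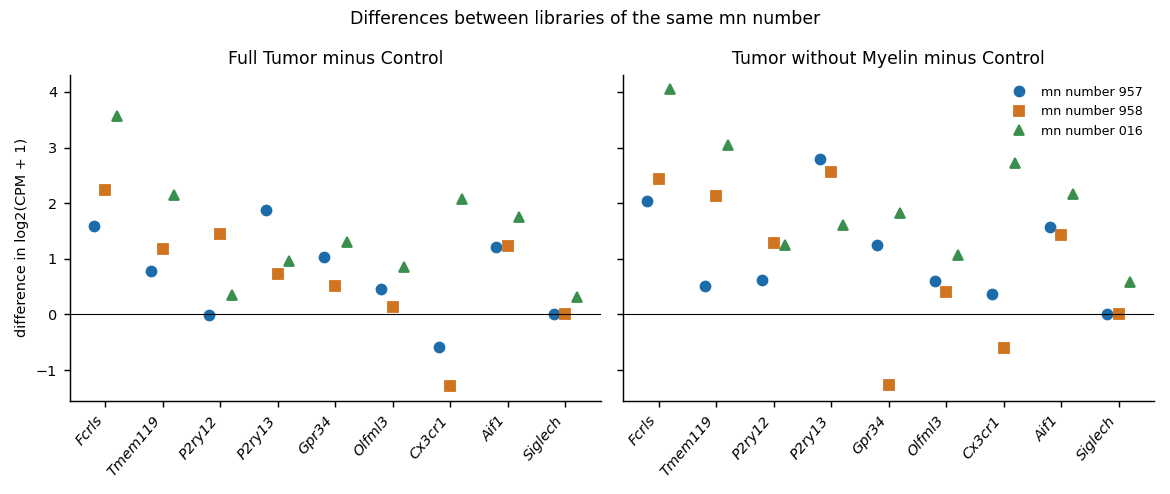
Differences on the log2(CPM + 1) scale between libraries of the same mn number for the 9 genes, Full Tumor minus Control on the left and Tumor without Myelin minus Control on the right. Fcrls and Aif1 are above 0 in every number, while Cx3cr1 is at −0.58, −1.29 and 2.08 in Full Tumor.

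Tmem119 (ENSMUSG00000054675, chromosome 5, 113793729 to 113800516, minus strand), a membrane protein used as a marker of microglia, was low in all groups. It was at 2.53, 2.62 and 14.8 CPM in Full Tumor, 1.95, 6.05 and 28.4 CPM in Tumor without Myelin and 1.37, 2.32 and 5.99 CPM in Myelin Alone, against 1.06, 0.604 and 2.55 CPM in Control. Number 016 was the highest library of every group, and each comparison with Control overlapped, although within each number all 3 other groups were above Control.

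Tmem119 rose by 2.64 ± 0.48 in Tumor without Myelin with the block (edgeR adjusted p = 0.0297), 6.24-fold with a 95% interval of 3.02 to 12.9. The value in Full Tumor was 1.94 ± 0.47 (adjusted p = 0.110), and over both myelin states it rose by 1.72 ± 0.32 (adjusted p = 0.0178). The call in Tumor without Myelin was lost, at adjusted p of 0.0501 to 0.177, without the library of Full Tumor 957, Myelin Alone 957, Control 958, Tumor without Myelin 958, Control 016 or Tumor without Myelin 016. The pooled call was lost, at 0.0517 to 0.0642, without that of Full Tumor 957, Control 958, Tumor without Myelin 958, Control 016, Tumor without Myelin 016 or Myelin Alone 016. Without the whole of number 957, 958 or 016 the adjusted p in Tumor without Myelin was 0.0625, 0.278 and 0.466. For the pooled contrast it was 0.0452, 0.145 and 0.390.

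Siglech (ENSMUSG00000051504, chromosome 7, 55768178 to 55778925, plus strand) was read in number 016 alone, with 9 counts in Full Tumor, 12 in Tumor without Myelin, 1 in Myelin Alone and 3 in Control. The other 8 libraries had 0 counts, which allows up to 0.154 to 0.171 CPM. No fold is given, because the Control libraries are at or under the floor of 3 counts. Genes of plasmacytoid dendritic cells, the other source of Siglech, summed to 439, 538 and 234 CPM in Full Tumor, 432, 598 and 231 CPM in Tumor without Myelin and 201, 303 and 233 CPM in Myelin Alone, against 237, 262 and 224 CPM in Control. Most of this sum was Bst2 and Tcf4, which many other cells make, and the sum was no higher in number 016 than in the others of either tumor group.

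Olfml3 (ENSMUSG00000027848, chromosome 3, 103722222 to 103738001, minus strand), which encodes a secreted protein, was abundant in every group and differed by less between them. Its level was 255, 293 and 161 CPM in Full Tumor, 282, 355 and 188 CPM in Tumor without Myelin and 199, 271 and 121 CPM in Myelin Alone, against 184, 267 and 89.2 CPM in Control. The groups overlapped throughout, since the numbers differed by more than the groups, with 958 highest and 016 lowest in each group. Within every number Control was the lowest and Tumor without Myelin the highest.

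Olfml3 rose by 0.69 ± 0.13 in Tumor without Myelin with the block (edgeR adjusted p = 0.0311), 1.61-fold with a 95% interval of 1.33 to 1.95. In Full Tumor the value was 0.47 ± 0.13 (adjusted p = 0.155), and over both myelin states it rose by 0.49 ± 0.09 (adjusted p = 0.0147). The call in Tumor without Myelin was lost with library totals alone (adjusted p = 0.0645) and, at 0.0530 to 0.166, without the library of Control 957, Full Tumor 957, Tumor without Myelin 957, Tumor without Myelin 958, Myelin Alone 958, Control 016 or Tumor without Myelin 016. The pooled call was lost without that of Myelin Alone 958 (adjusted p = 0.0503). It was also lost without the whole of number 957 (0.173), 958 (0.0641) or 016 (0.0626), as was that in Tumor without Myelin (0.341, 0.157 and 0.110).

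Aif1 (ENSMUSG00000024397, chromosome 17, 35170991 to 35176068, minus strand), the gene of the actin-binding protein IBA1, was called in both comparisons with Control, as Fcrls was. It was at 74.3, 167 and 51.3 CPM in Full Tumor, 94.7, 191 and 68.7 CPM in Tumor without Myelin and 25.7, 90.4 and 18.6 CPM in Myelin Alone, against 31.3, 70.5 and 14.5 CPM in Control. The groups overlapped because number 958 was the highest in every group, whereas within each number both tumor libraries were above the other 2. Differences of Full Tumor from Control on the log2(CPM + 1) scale were 1.22, 1.23 and 1.76 in numbers 957, 958 and 016.

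With the block Aif1 rose by 1.42 ± 0.18 in Full Tumor (edgeR adjusted p = 0.00474), 2.68-fold with a 95% interval of 2.04 to 3.53. In Tumor without Myelin it rose by 1.75 ± 0.18 (adjusted p = 0.00209), 3.37-fold, and over both myelin states by 1.51 ± 0.13 (adjusted p = 0.000197). These calls held when any single library was left out. With group only the adjusted p was 1.00 in both comparisons with Control. With the block, Full Tumor against Control gave 1.50 (adjusted p = 0.126) without number 957 and 1.51 (adjusted p = 0.0988) without 958. The call in Tumor without Myelin was lost without number 957 (1.83, adjusted p = 0.0625) and held without 958 or 016. The pooled call held without any number, at adjusted p up to 0.0239.

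Levels of different genes were set side by side per kilobase of exon, counted over all annotated exons of a gene. How far these lengths match the transcripts made was not tested, so the order is rough. On this scale Aif1 was the most abundant of the 9 in Tumor without Myelin at 77.1 ± 42.1 CPM per kb, followed by Fcrls at 46.6 ± 14.9, Olfml3 at 44.6 ± 13.6 and Cx3cr1 at 33.1 ± 14.3 CPM per kb (SD, n = 3). Neighbours in this order differed by less than their spread. In Control Olfml3 led at 29.3 ± 14.5 CPM per kb, with Aif1 at 25.3 ± 18.8, Cx3cr1 at 20.6 ± 12.4 and Fcrls at 6.35 ± 2.74 CPM per kb. Tmem119, P2ry13, P2ry12, Gpr34 and Siglech were below these 4 in both groups, at 5.24 CPM per kb or less in Tumor without Myelin and 0.607 CPM per kb or less in Control.

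Myelin by itself was set against Control. With group only the comparison called 0 of the 8 genes and 0% of all, and with the block 0 of 8, against 0.0373% of all tested genes. At an unadjusted p under 0.05 the block had 3 of the 8, Fcrls, Tmem119 and P2ry13, all higher in Myelin Alone, and 810 genes in all, and DESeq2 called 0 of the 8 with and without the block. Fcrls was 1.07 higher (95% interval 0.33 to 1.81, edgeR adjusted p = 0.625) and Aif1 0.15 (−0.25 to 0.54, adjusted p = 0.990). Of the 9 genes 4 were higher in Myelin Alone in each of the 3 numbers, against 13.6% of all tested genes.

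Myelin in the presence of tumor material, Full Tumor against Tumor without Myelin, called 0 of the 8 genes and 0% of all in both fits. At an unadjusted p under 0.05 the block had 1 of the 8, P2ry13, lower in Full Tumor, and 520 genes in all, and DESeq2 called 0 of the 8 with and without the block. In this comparison 5 of the 9 genes (Fcrls, P2ry13, Olfml3, Cx3cr1 and Aif1) were lower in Full Tumor in each of the 3 numbers, against 14.1% of all tested genes. The 95% intervals with the block were −1.09 to 0.32 for Fcrls, −0.71 to 0.06 for Aif1, −1.79 to 0.30 for Cx3cr1 and −0.49 to 0.06 for Olfml3.

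Over both tumor states, the myelin effect called 0 of 8 with group only (0% of all) and 0 of 8 with the block (0.112% of all), with 0 of the 8 at an unadjusted p under 0.05 in either fit. The interaction of tumor and myelin, which asks whether myelin acts otherwise beside tumor material, called 0 of 8 and 0% of all in both fits. With the block 4 of the 8 had an unadjusted p under 0.05, all with a negative sign: P2ry13 at −2.67 (95% interval −4.42 to −0.92), Tmem119 at −1.84 (−3.24 to −0.44), Fcrls at −1.45 (−2.47 to −0.43) and Olfml3 at −0.39. Their adjusted p was 1.00, and 393 genes reached that unadjusted level. DESeq2 called 0 of the 8 in both contrasts, with and without the block.

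Other genes known from microglia moved with tumor material in part. Of a list of 33, 31 were in the table and 26 were tested. With the block 5 of the 26 were called in Full Tumor (0.813% of all tested genes), 4 in Tumor without Myelin (0.745% of all), 0 in Myelin Alone (0.0373% of all) and 7 in the pooled contrast (2.25% of all). All of these were higher, and the list's median in the pooled contrast was 0.31, against −0.0017 over all tested genes. Group only called 0 of the 26 in the pooled contrast. The 3 genes of complement component C1q rose together: C1qa by 1.20 ± 0.14 (edgeR adjusted p = 0.00175), C1qb by 0.85 ± 0.10 (adjusted p = 0.00175) and C1qc by 0.85 ± 0.10 (adjusted p = 0.00182) in the pooled contrast. Many macrophages outside the brain also make C1q.

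Among further genes of that list, Lgmn, which encodes a lysosomal protease, rose by 0.50 ± 0.07 (adjusted p = 0.00308) in the pooled edgeR contrast with the block. Rnase4, a secreted ribonuclease, rose by 1.18 ± 0.24 (adjusted p = 0.0309), and Abi3, an adaptor of the actin machinery, by 0.71 ± 0.15 (adjusted p = 0.0295). Csf1r, the receptor that keeps microglia alive, was at 0.16 ± 0.08 (adjusted p = 0.465), and Trem2, a lipid-sensing receptor, at −0.06 ± 0.06 (adjusted p = 0.769). Mertk, a receptor for dying cells, had 0.84 ± 0.21 (adjusted p = 0.0738). Tgfbr1, through which transforming growth factor beta signals, had 0.51 ± 0.16 (adjusted p = 0.180).

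**Figure D4:**
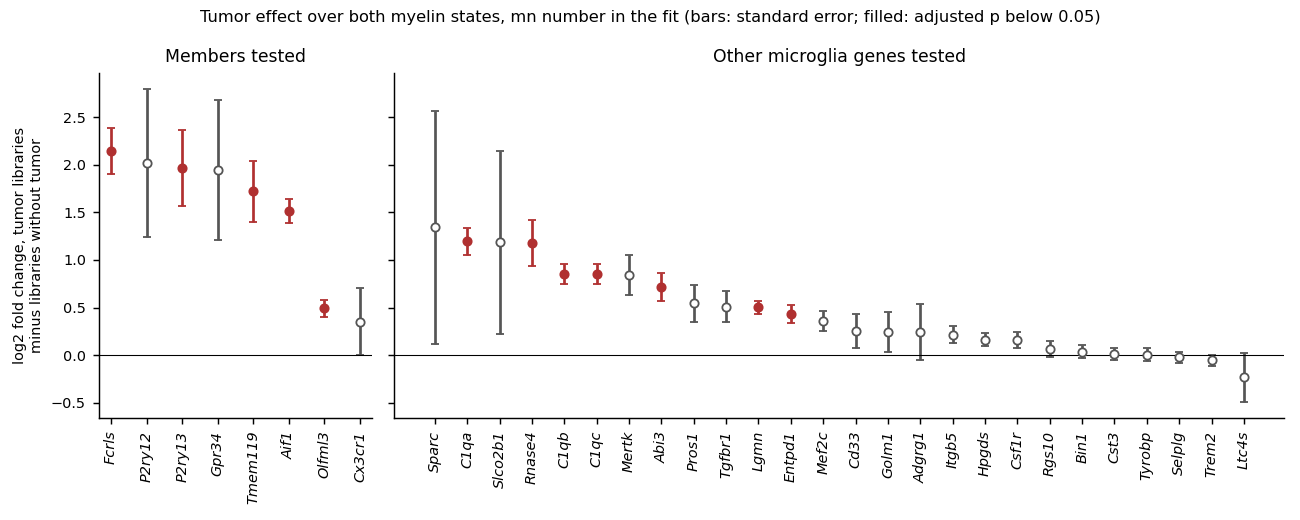
Log2 fold change of the 6 libraries with tumor material against the 6 without, with the mn number in the fit, for the 8 tested genes (left) and the 26 other microglia genes tested (right); bars are standard errors and filled points have an adjusted p under 0.05. On the left 5 of 8 are filled and on the right 7 of 26, while Csf1r and Trem2 lie near 0.

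Of 13 tested genes of the transforming growth factor beta pathway, 0 were called in the pooled contrast with the block, against 2.25% of all tested genes. With 13 genes, a count of 0 cannot be told apart from that share. Their median was 0.14, against −0.0017 over all tested genes. The smallest adjusted p was that of Skil, an inhibitor of the pathway, at 0.27 ± 0.07 (edgeR adjusted p = 0.0653), and Nrros, which anchors the latent growth factor on microglia, had 0.25 ± 0.09 (adjusted p = 0.212). Of 11 tested partners of the 9 genes, 1 was called, against 2.25% of all tested genes. Entpd1, which breaks down extracellular ATP and ADP and so limits the ligand of P2RY12 and P2RY13, rose by 0.43 ± 0.10 (adjusted p = 0.0410). Entpd1 is also in the list of other microglia genes, where the same call was already counted. Adam10, a protease that sheds CX3CL1, had 0.38 ± 0.13 (adjusted p = 0.226), and Rac1, a partner of AIF1 in actin remodelling, 0.24 ± 0.10 (adjusted p = 0.320).

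Markers of macrophages of other origin also moved with the block, where the contrast called 2.25% of all tested genes. With group only it called 0 of the partners above and 0 of each of the lists named next, against 0.0745% of all tested genes. Of 16 tested genes known from marrow-derived macrophages in brain tumors, 2 were higher and 1 lower in the pooled contrast with the block: Tgfbi, a matrix protein, rose by 0.59 ± 0.09 (edgeR adjusted p = 0.00566), Ccr2, the monocyte chemokine receptor, rose by 1.63 ± 0.32 (adjusted p = 0.0228) and F10, coagulation factor X, fell by 1.09 (SE 0.19, adjusted p = 0.0128). Of 7 tested genes of border macrophages, which line the vessels and membranes of the brain, 2 rose, Pf4 by 1.15 ± 0.13 (adjusted p = 0.00109) and Ms4a7 by 0.39 ± 0.08 (adjusted p = 0.0358). The border macrophage list summed to 1614, 2185 and 1379 CPM in Full Tumor, 1497, 2109 and 1386 CPM in Tumor without Myelin and 1152, 1782 and 1246 CPM in Myelin Alone, against 882, 1360 and 954 CPM in Control. Of 10 general macrophage genes 2 rose, Cd14 by 0.52 ± 0.11 (adjusted p = 0.0335) and Adgre1 by 0.38 ± 0.09 (adjusted p = 0.0477). Cd14 averaged 387 ± 115 CPM in Full Tumor and 485 ± 124 CPM in Tumor without Myelin (SD, n = 3 each). It was at 226 ± 14.8 CPM in Myelin Alone and 382 ± 26.1 CPM in Control, so Full Tumor was near Control.

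The list that defines microglia summed to 3.27, 14.5 and 29.4 CPM in Full Tumor, 5.55, 7.88 and 44.1 CPM in Tumor without Myelin and 2.42, 2.37 and 14.7 CPM in Myelin Alone, against 7.13, 0.604 and 15.2 CPM in Control. Of its 7 genes 6 were in the table, and in all 12 libraries the largest part of the sum was Tmem119 or Sparc, a matrix protein that many other cells also make. The list also holds P2ry12 and Siglech, so 3 of the 9 genes are part of this sum. Tumor material holds microglia of its own, the sort was for dTomato+ cells, and the part of any carried-over microglia in the rise of Fcrls, Tmem119 or P2ry13 was not tested.

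Genes near the 9 on the chromosome were counted as well, because reads of overlapping genes cannot be told apart. The span of Cx3cr1 overlaps Wdr48 (303 to 1486 counts per library), Gorasp1 (335 to 839), Csrnp1 (36 to 116) and Ttc21a (0 to 7), none of which shares an exon base with it. It also overlaps Gm33858 (0 to 24 counts), which shares 78 exon bases with Cx3cr1 on the other strand. Within 20000 bases but without overlap, the neighbours with over 100 counts in every library were Iscu and Selplg beside Tmem119, Hipk1 beside Olfml3, Prrc2a and Lst1 beside Aif1 and Tubgcp5 beside Siglech, with 221 to 6091 counts per library.

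The genes whose pattern over the 12 libraries was most like that of each abundant gene were named by the root mean square (RMS) difference of their centred log2 levels, among 8252 candidates, as a description. For Aif1 these were C1qa (0.33), C1qb (0.41) and Ms4a6c (0.46). For Fcrls they were Rnase4 (0.62), Siglec1 (0.65) and Ms4a6b (0.67), so its pattern was matched less closely than that of Aif1. For Olfml3 they were Pitpnc1 (0.13), Adap2 (0.14) and Cxcl16 (0.15), and for Cx3cr1 Gm14636 (0.39), Rasgrp3 (0.42) and Eogt (0.43). The RMS of each gene's own centred levels was 1.20 for Fcrls, 1.11 for Aif1, 0.68 for Cx3cr1 and 0.55 for Olfml3. A small difference therefore means less for a gene that varied little.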

How the data were processed

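Messenger RNA of 12 sorted macrophage libraries was measured, 3 in each of 4 groups. The authors deposited raw gene counts, whole numbers with no normalization, with Ensembl identifiers, symbols and positions. Positions are on mm10, per the submitters' processing notes. Total RNA was reverse transcribed from an oligo-dT primer with template switching, per the labels' protocols. The tools for alignment and counting, and the use of strand, are not stated in the sources used here. Reads of overlapping or antisense genes therefore cannot be told apart. All 12 value columns matched a label, and 0 were unused. Totals were 17071673 to 21689624 counts per library. Floors of 3 counts allow for counting error only, because the counts are of reads without molecular identifiers.

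CPM, fold changes and tests were computed from the deposited counts with edgeR 4.0.16 in R 4.3.3 (quasi-likelihood test, TMM factors, filterByExpr, 13414 genes kept, Benjamini-Hochberg adjustment over all of them, threshold 0.05, two-sided). The first fit had group as its only term. Standard errors are the size of the log2 fold change divided by the root of F. Whether the shared mn numbers pair the libraries was checked on deviations from the group means: r was above 0.1 in 18 of 18 same-number pairs (0.120 to 0.631), so the number enters a second fit as a block. That the numbers pair the libraries thus comes from the data, not from the labels. No replicate pair was a duplicate, with chi-square per degree of freedom of 23.9 to 142. Alternatives were DESeq2 1.42.0, library totals without TMM, no filter on low counts, and leaving out each library and each number. The fit of a tumor effect per number was added after seeing the data. The procedure was tested on simulated data.

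The 9 genes and the other lists were chosen with earlier results of these data known. All 9 are named. Of the other microglia genes, Sall1, Csf1r, Mertk, Trem2 and Tgfbr1 and the 6 with the smallest adjusted p in the pooled tumor contrast with the block are named, of each other list up to 3 by the same p, and for likeness 3 genes each. Some genes of these lists are not reported here and are left out of the lists' counts, medians and sums. Of the neighbours within 20000 bases, those that overlap one of the 9 genes with over 3 counts in some library, or that have over 100 counts in every library, are named, limits set after their counts were seen. Sall3 and Slc2a5 are named as microglia genes near 0, after their values were seen. Exon lengths, for CPM per kb, and strands are from GENCODE M21, on the same build, where 24684 of the 24728 identifiers were found.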

Additional observations from a re-analysis of the deposited data

How the results depend on the processing

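The counts of calls depended on whether the mn number was in the fit. Adding the replicate block took the genes called to 109 in Full Tumor against Control, 100 in Tumor without Myelin against Control, 5 in Myelin Alone against Control, 302 in the pooled tumor contrast and 15 in the pooled myelin contrast, and the 9 genes' calls to 2 in Full Tumor against Control, 5 in Tumor without Myelin against Control and 5 in the pooled tumor contrast. It turned P2ry12 in Myelin Alone against Control to −0.11, and the cause of each change was not tested. Library totals alone gave 2 genes in the pooled tumor contrast. Without the filter on low counts, which enlarges the set tested and moves the adjustment, group only called 3, 1, 48 and 2 genes in Full Tumor, Tumor without Myelin, the pooled tumor and the pooled myelin contrast, with 1 of the 9 genes in the first and 1 in the second. DESeq2 with group only called 43 and 54 genes with 1 of the 9 genes each, 11 in Myelin Alone, 5 between the tumor groups, 174 in the pooled tumor and 17 in the pooled myelin contrast. With the block, no filter gave 178, 188, 20, 5 and 48 genes in Full Tumor, Tumor without Myelin, Myelin Alone, between the tumor groups and in the pooled myelin contrast. DESeq2 with the block gave 343 (5 of the 9 genes), 321, 69 and 15 genes in the 4 group comparisons, and 613 and 125 in the pooled tumor and myelin contrasts. The tumor effect in number 016 against the other numbers called 205 genes and 1 of the 9 without the filter. Siglech passes no filter, so it has a value only without one, where it was not called.

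Leaving out a single library or number moved the counts as follows. Genes called with group only (and in the per-number fit) were 0 to 115 in the pooled tumor contrast, 0 to 69 in Full Tumor against Control, 0 to 61 in Tumor without Myelin against Control and 25 to 118 in the contrast of number 016 with the others. Of the 9 genes, those called in these fits were 0 to 1 in the pooled tumor contrast, 0 to 1 in Full Tumor against Control, 0 to 1 in Tumor without Myelin against Control and 0 to 1 in the contrast of number 016 with the others. Genes called with the block were 1 to 183 in Full Tumor against Control, 4 to 153 in Tumor without Myelin against Control, 0 to 9 in Myelin Alone against Control, 29 to 293 in the pooled tumor contrast, 0 to 26 in the pooled myelin contrast and 0 to 1 in Full Tumor against Tumor without Myelin. Of the 9 genes, those called with the block were 0 to 5 in Tumor without Myelin against Control, 2 to 5 in the pooled tumor contrast and 0 to 2 in Full Tumor against Control. In Full Tumor against Control with group only the range was −0.96 to 0.63 for Cx3cr1. In the pooled myelin contrast with group only the range was −0.56 to 0.34 for Aif1, −0.53 to 0.95 for Tmem119, −0.85 to 0.30 for Gpr34, −0.22 to 0.15 for Olfml3, −0.39 to 0.66 for P2ry13 and −1.25 to 0.023 for P2ry12. In Myelin Alone against Control with group only the range was −1.72 to 0.78 for P2ry12, −2.29 to 0.64 for Gpr34, −0.61 to 0.27 for Cx3cr1, −0.21 to 0.52 for Olfml3 and −0.83 to 0.97 for Aif1. In Full Tumor against Tumor without Myelin with group only the range was −0.57 to 1.44 for Gpr34, −0.44 to 0.0073 for Olfml3, −0.92 to 0.25 for Aif1 and −2.23 to 0.72 for Tmem119. In the interaction with group only the range was −1.25 to 0.55 for Aif1, −1.55 to 0.95 for P2ry12 and −1.21 to 3.69 for Gpr34. In Tumor without Myelin against Control with group only the range was −0.41 to 3.19 for Gpr34 and −0.12 to 1.37 for Cx3cr1. In the pooled tumor contrast with group only the range was −0.27 to 0.90 for Cx3cr1. In Full Tumor against Control with the block the range was −0.96 to 0.62 for Cx3cr1. In Myelin Alone against Control with the block the range was −1.22 to 0.77 for P2ry12, −2.20 to 0.97 for Gpr34, −0.78 to 0.45 for Cx3cr1 and −0.089 to 0.35 for Aif1. In the pooled myelin contrast with the block the range was −0.995 to 0.29 for P2ry12, −0.34 to 0.46 for P2ry13, −0.77 to 0.73 for Gpr34, −0.10 to 0.045 for Olfml3 and −0.21 to 0.0093 for Aif1. In the interaction with the block the range was −1.87 to 0.77 for P2ry12, −1.47 to 2.89 for Gpr34 and −1.19 to 0.015 for Cx3cr1. In Full Tumor against Tumor without Myelin with the block the range was −0.61 to 0.96 for Gpr34 and −1.93 to 0.075 for P2ry12. In Tumor without Myelin against Control with the block the range was −0.12 to 1.36 for Cx3cr1. In the pooled tumor contrast with the block the range was −0.28 to 0.89 for Cx3cr1. In the contrast of number 016 with the others the range was −0.69 to 2.02 for Gpr34 and −1.82 to 0.23 for P2ry13.

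Values of these ranges that turned sign belong to genes that were not called in that comparison. With the block the calls of Fcrls and Aif1 held without any single library, but not all of them without a whole number. With 3 libraries a group the precision is limited, and the floor of 3 counts is 0.142 to 0.182 CPM, so P2ry12, Gpr34 and Siglech were measured on few counts. Values within the numbers 957, 958 and 016 stand beside the results.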

Other observations

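Other genes of the lists also differed between the numbers in their response to tumor material, in the contrast of number 016 with 957 and 958 that was added after seeing the data. It called 3 of the 26 tested microglia genes (Tgfbr1, Mertk and Slco2b1), against 0.701% of all tested genes. Tgfbr1, the receptor for transforming growth factor beta, was at 243 CPM in Full Tumor and 286 CPM in Tumor without Myelin of number 016, against 111 CPM in Myelin Alone and 119 CPM in Control. In numbers 957 and 958 it was at 172 to 195 CPM with tumor material and at 147 to 183 CPM without. The contrast was 1.03 ± 0.16 (edgeR adjusted p = 0.0129). Mertk, a receptor for dying cells, was at 46.1 and 35.8 CPM in Full Tumor and Tumor without Myelin of number 016, against 17.9 and 7.94 CPM in Myelin Alone and Control, with a contrast of 1.33 ± 0.25 (adjusted p = 0.0460). Its range in numbers 957 and 958 was 35.7 to 64.2 CPM with tumor material and 23.7 to 47.4 CPM without. Number 016 thus stood apart in Mertk by its low level without tumor material. Slco2b1, an organic anion transporter, was at 3.73 CPM in Full Tumor and 5.22 CPM in Tumor without Myelin of number 016, against 0.0554 CPM in Myelin Alone and 0 in Control. In numbers 957 and 958 it was at 1.58 to 4.05 CPM with tumor material and at 1.76 to 6.09 CPM without. Its fitted contrast (adjusted p = 0.0129) rests on a library at 0, so no fold is given. Of 11 tested partners of the 9 genes 1 was called, against the same 0.701% of all. It was Adam10, a protease, at 0.80 ± 0.15 (edgeR adjusted p = 0.0398). Of 5 tested genes of plasmacytoid dendritic cells 1 was called as well. It was Bst2, an interferon-induced gene, with a contrast of −1.27 (SE 0.17, adjusted p = 0.00682). In numbers 957 and 958 it was at 308 to 458 CPM with tumor material and at 121 to 209 CPM without. In number 016 it was at 160 CPM in Full Tumor and 146 CPM in Tumor without Myelin, against 163 CPM in Myelin Alone and 144 CPM in Control. The part of Mpo-bearing cells in these values was not tested.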
